A study of Saccharomyces cerevisiae with 30 samples.

Results

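The origin recognition complex (ORC) is the protein assembly that marks replication origins in eukaryotes. It binds DNA, and together with Cdc6 and Cdt1 it loads the Mcm2-7 helicase there in G1. In budding yeast (Saccharomyces cerevisiae) origins hold a short T-rich element and lie mostly between genes, and ORC has also been mapped at silent mating-type loci and telomeres. Orc5 is 1 of its subunits. The sites described here are narrow Orc5 ChIP-seq peaks that were listed in cells without rapamycin and had no counterpart in cells with rapamycin. Rapamycin is meant to remove FRB-tagged Orc5 from the nucleus.

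A peak was a member when it was under 1000 bp wide, lay more than 250 bp from every nuclear tRNA gene and shared no base with any peak of the rapamycin list. Of 1415 peaks without rapamycin, 343 met this rule (24.2%). Another 633 narrow peaks away from tRNA genes did overlap a rapamycin peak, and they are called kept sites below, against the lost sites. The remaining peaks comprised 211 wide ones away from tRNA genes and 228 within 250 bp of a tRNA gene. Loss was defined by these same 2 lists, with 1 library each, so it has no replicate check and gets no test. In all, 27.1% of the peaks without rapamycin, wide and tRNA peaks included, were absent from the rapamycin list.

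The strains carry FRB tags for anchor-away, in which rapamycin ties a tagged protein to an anchor outside the nucleus. Orc5-FRB cells were sampled with rapamycin (1 library) and without it (1 library), and Arp5-FRB cells with rapamycin (2 libraries) and without it (2 libraries). Arp5 is an actin-related subunit of INO80, an ATP-dependent nucleosome remodeller. Cells for ChIP-seq had 1 h of nocodazole, 1 h of 8 µg/ml rapamycin (in the rapamycin libraries) and 1 h of 5 µg/ml alpha factor, which holds cells in G1. The protocol names Orc2 as the depleted protein, where the genotypes give Orc5 and Arp5. Break-seq labels and sequences broken DNA ends. It was run on log-phase cells, all of them given rapamycin for 3 h, of the genotypes INO80-FRB Mot1-FRB, Mot1-FRB, INO80-FRB and WT-FRB, each with 100 mM hydroxyurea (HU) and without HU (2 libraries in each of 8 groups). HU lowers deoxynucleotide pools and slows replication forks. Mot1 removes the TATA-binding protein from promoters. The strains are named here by their genotype labels; the files are peak lists, in which neither a protein's depletion nor read depth can be checked.

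The rapamycin list was not the shorter one. It held 1968 Orc5 peaks against 1415 without rapamycin, covering 8.17% and 8.08% of the nuclear genome, and 860 of its peaks touched no peak of the other list. The lost sites are therefore places where a peak was listed without rapamycin and not with it, between lists that differ in both directions.

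Genes next to well-studied origins did not supply members. The nearest Orc5 peaks to TRP1, whose neighbour is an early-studied plasmid origin, to HHF1, a histone H4 gene, and to RFA1, a subunit of the single-strand binding protein RPA, were 2803, 1100 and 2023 bp wide. All 3 were also covered with rapamycin.

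Lost sites were small. Their median width was 177 bp, from 1 to 975 bp, and that of the kept sites was 195 bp. The widest lost site, 975 bp, lay inside SPO75, a sporulation gene, at chrXII:139528-140502. Next came ATR1, a multidrug exporter gene (chrXIII:39116-40081), and BLM10, which encodes a proteasome activator (chrVI:127484-128412). Just beyond the width limit were lost peaks in MSH6, a mismatch repair gene, and EXG1, a glucanase gene. At the other end, members of 1 bp lay in TOM1, a ubiquitin ligase gene, between YRA1 and COI1, and between SNG1 and YPP1. These coordinates are sacCer3, with the start of each deposited interval taken as 0-based.

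The share of peaks missing with rapamycin differed little among narrow peaks of over 200 bp and was higher for the narrowest. Away from tRNA genes, 103 of 257 peaks under 100 bp were lost (40.1%) and 103 of 287 of 100 to 200 bp (35.9%). It was 32.3% at 200 to 300 bp, 29.9% at 300 to 500 bp (43 of 144) and 32.9% at 500 to 1000 bp (51 of 155). Beyond the width limit the share was 30 of 119 at 1 to 2 kb (25.2%) and 5 of 85 at 2 to 5 kb (5.88%). The step lies above 2 kb, where nearly every peak had a rapamycin counterpart. Among the peaks within 250 bp of a tRNA gene, 6 of 228 were lost. The lost site nearest to a tRNA gene, between SKN1 and the tRNA gene SUF4, lay 358 bp from it, while the 3 lost narrow peaks just outside that limit overlapped their tRNA gene.

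Some lost sites missed a rapamycin peak by a small margin. The nearest rapamycin peak lay 8 to 38345 bp away, with a median of 1446 bp. It was within 500 bp for 57 of the 343 (16.6%) and within 1 kb for 119 (34.7%). The closest was in CDC19, which encodes pyruvate kinase, at 8 bp. RPL22B, a ribosomal protein gene, followed at 12 bp, and the site between YNCH0006C and RPS27B at 17 bp. On the other side of the rule, the kept site between PAU20 and YOL160W, 401 bp wide, shared a single base with a rapamycin peak. The kept sites between CYC8 and RAD16 and in CIT2 are listed with a length of 0 bp. Each was counted as 1 bp, and that base lay in a rapamycin peak. The kept sites as a whole shared a median of 172 bp with a rapamycin peak, and 427 of the 633 were covered from end to end.

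Lost sites often stood beside other Orc5 peaks. A wide Orc5 peak lay within 1 kb of 78 of 343 lost sites (22.7%, exact binomial 95% interval 18.4 to 27.5) and of 65 of 633 kept sites (10.3%, 8.01 to 12.9). Any other Orc5 peak lay within 1 kb of 53.9% of lost and 43.0% of kept sites. These intervals, like all below, cover counting error only; the sites of a list come from 1 library and are not replicates, so shares of lost and kept sites are set side by side without a test.

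The share lost differed widely between chromosomes. It ran from 6 of 58 narrow sites on chromosome III (10.3%) and 15 of 76 on XI (19.7%) to 27 of 53 on XV (50.9%) and 21 of 34 on XII (61.8%). The density of Orc5 peaks with rapamycin ran the other way, at 461 per Mb on III and 372 on XI, against 95.3 on XV and 67.7 on XII. Across the 16 chromosomes the share lost and this density had a Spearman rho of -0.855 and a Pearson r of -0.889. This is a description only: the rule for loss uses the same rapamycin list, and the values share that library.

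**Figure D1:**
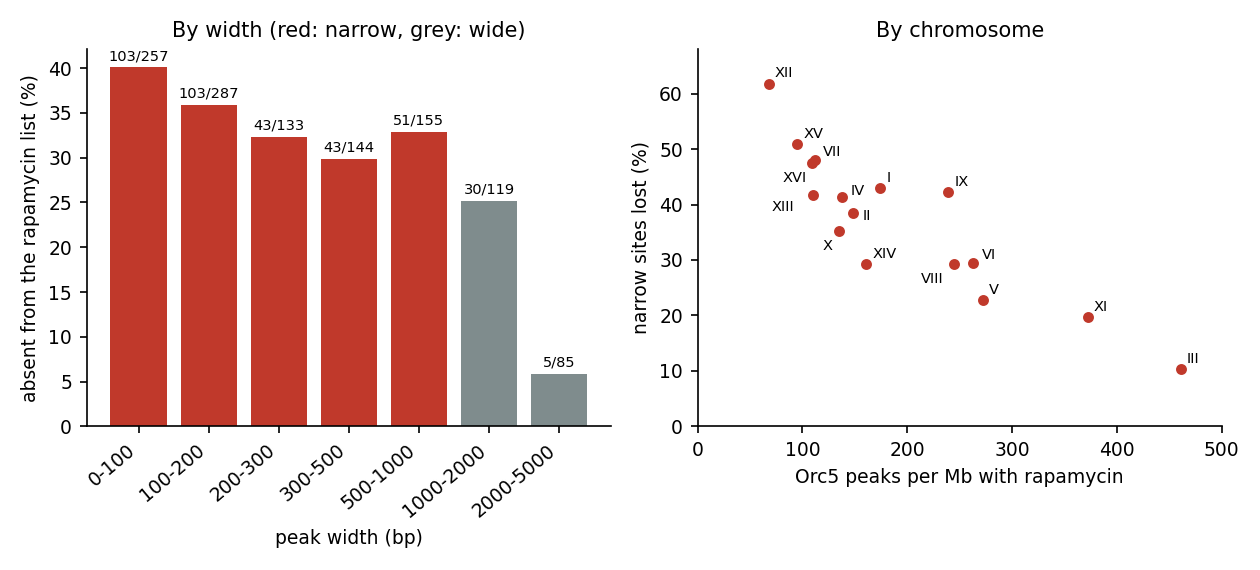
Left, percent of Orc5 peaks away from tRNA genes that were absent from the rapamycin list, by peak width in bp, with lost over all peaks above each bar (red, narrow; grey, wide). Right, percent of narrow sites lost on each chromosome against Orc5 peaks per Mb with rapamycin; XII (61.8%) and III (10.3%) are the extremes.

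Lost sites lay inside genes more often than kept ones. By its midpoint, 116 of 343 lost sites were inside a protein-coding gene (33.8%, 28.8 to 39.1), against 109 of 633 kept sites (17.2%, 14.4 to 20.4). Between divergent genes, where both neighbours are transcribed away from the interval, the order was the opposite, with 66 lost sites (19.2%) and 216 kept sites (34.1%). Intervals between convergent genes, into which both neighbours are transcribed, had 33 lost sites (9.62%) and 29 kept sites (4.58%). Intervals between tandem genes held 122 lost sites (35.6%) and 264 kept sites (41.7%). Of the other lost sites, 4 lay beyond the last gene of a chromosome, 1 in the noncoding RNA gene SUT053 and 1 in YPL060C-A, a reading frame of retrotransposon length.

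Read the other way, 51.6% of narrow sites inside a coding gene were lost (116 of 225) and 53.2% of those between convergent genes (33 of 62). The share was 23.4% between divergent genes (66 of 282) and 31.6% between tandem genes (122 of 386). A position between genes and within 500 bp upstream of a coding start, counted here as a promoter, held 42.3% of lost and 56.1% of kept sites.

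Of the wide Orc5 peaks, 37.9% lay inside coding genes, 20.9% between divergent genes and 11.8% between convergent genes, each nearer to the lost than to the kept share. Between tandem genes the lost share of 35.6% was nearer to the kept share than to the wide share of 26.5%, and promoters held 42.3% of lost and 19.9% of wide sites. Coding genes make up 71.1% of the nuclear bases, so both narrow classes lay between genes more than the bases do. Within coding genes, 53 of the 116 lost sites were in the first of 3 equal parts of the gene, 20 in the middle part and 43 in the last part. The wide peaks differed, with 54 of 80 in the last part.

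**Figure D2:**
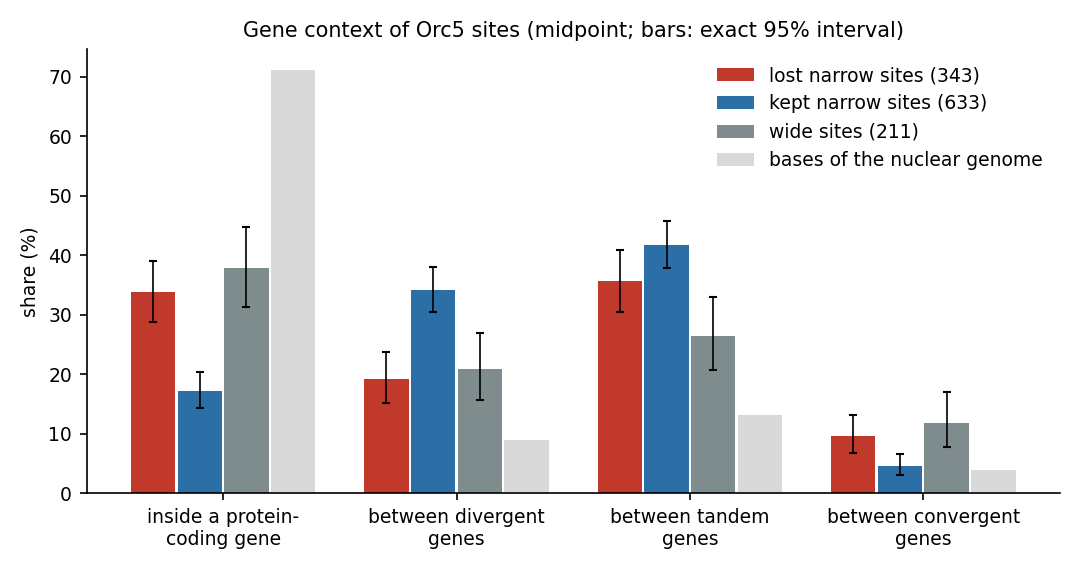
Percent of lost narrow sites (red), kept narrow sites (blue), wide sites (grey) and nuclear genome bases (light grey) in each gene context, by site midpoint; error bars are exact binomial 95% intervals. Lost sites exceed kept sites inside coding genes and between convergent genes and lie below them between divergent genes.

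More ribosomal protein, histone and glycolysis genes had a kept site than a lost site, and the share with a kept site was above that of all coding genes. A lost site lay in, or within 500 bp upstream of, 301 of 6002 protein-coding genes (5.01%), and a kept site at 559 (9.31%). At the 137 cytosolic ribosomal protein genes there were 4 genes with a lost site (2.92%), namely RPL22B, RPL43B, RPP2B and RPS0B, against 31 with a kept site (22.6%). None of the 9 genes for core histones and H2A.Z had a lost site, a count too small to set against 5.01%, and 6 had a kept one (66.7%), among them HHT1 and HHF1 for histones H3 and H4. A site between divergent genes can count for both, so these 6 genes need not be 6 separate sites. Of the 19 glycolysis genes, 1 had a lost site (CDC19; 5.26%, close to the share of all coding genes) and 7 a kept site (36.8%), including TDH3, PGK1 and FBA1, whose enzymes act in the lower and middle steps of the pathway. All 4 ribosomal protein genes with a lost site had a rapamycin peak within 549 bp of it.

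The other lists were small, where 5.01% of all coding genes had a lost site and 9.31% a kept site. At these list sizes the counts of lost sites, those of 0 included, cannot be told apart from 5.01%. For DNA damage and nucleotide pools, lost sites lay at 2 of 17 genes, including RAD54, which encodes a DNA translocase. Kept sites lay at 4 of them, RFA1, RNR3, HUG1 and SML1. No gene of replication initiation (0 of 30) or of the INO80 complex (0 of 15) had a lost site, where kept sites lay at 1 (ORC1) and 3 (ACT1, IES5 and IES6). TAF2, a TFIID subunit gene, was the only one of 17 genes of Mot1 and TFIID with a lost site, and BUR6 the only one with a kept site. Of 13 phosphate and inositol genes, 1 had a lost site and 4 had a kept site; the one, the inositol transporter gene ITR1, held 2 lost sites within its coding region, of 38 and 5 bp.

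Few lost sites carried a DNA break peak. Across the 16 Break-seq lists, 19 of 343 (5.54%, 3.37 to 8.52) overlapped a break peak in at least 1 list, against 48 of 633 kept sites (7.58%) and 9.12% of all Orc5 peaks without rapamycin. In at least 2 lists it was 9 lost sites (2.62%), against 13 kept sites (2.05%) and 3.39% of all Orc5 peaks. Of the wide Orc5 sites, 19.4% had a break peak in at least 1 list. Wider intervals meet more peaks: a break peak was found at 3 of 103 lost sites under 100 bp and at 6 of 51 of 500 to 1000 bp.

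A pair of lost sites accounted for most of the recurrence. Both had a break peak in all 12 lists other than those of Mot1-FRB, and both lie in repeated DNA, where reads cannot be placed on 1 copy with certainty. The first is in YHR054C (chrVIII:214062-214407), a reading frame between the metallothionein genes CUP1-1 and CUP1-2, with fold values over the local background of 2.34 to 3.36. The second is between YRF1-4 and YRF1-5 (chrXII:1071458-1071657), helicase genes of the subtelomeric Y' element, with folds of 1.63 to 3.34. No other lost site had a break peak in more than 3 lists.

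Lost sites with a break peak had it mostly in WT-FRB cells, and so had kept sites. Of the 19 lost sites, 16 had a break peak in at least 1 WT-FRB list, the 2 repeat sites included, and 3 had one only in a depleted strain. Of the 48 kept sites with a break peak, 46 had one in at least 1 WT-FRB list and 2 only in a depleted strain. In 2 of 633 kept sites the peak was present in both WT-FRB libraries with HU and in neither without HU. The same was found at 5 of 343 lost sites. They lie between STF2 and SEC9 (a SNARE gene), between CDC15 (a mitotic exit kinase gene) and PAU7, between RCE1 and BUL1 (a ubiquitin ligase adaptor gene), between TFC3 (a TFIIIC subunit gene) and NUP60 (a nucleoporin gene), and between ECM15 and NTH2 (a trehalase gene).

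Their folds were modest. At STF2/SEC9 (chrVII:508403-509289, 887 bp) they were 2.93 and 2.40 in the 2 WT-FRB libraries with HU. The values at CDC15/PAU7 (chrI:175742-176521) were 2.94 and 2.23, and at RCE1/BUL1 (chrXIII:815161-815816) 2.35 and 2.51. None of these 3 sites had a break peak in any other list. TFC3/NUP60 (chrI:151174-151432) had folds of 2.25 and 2.26 and likewise no other peak. ECM15/NTH2 (chrII:237423-238227) had 2.07 in 1 INO80-FRB library with HU, against 2.90 and 2.64 in WT-FRB with HU.

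The reverse pattern, a peak in both WT-FRB libraries without HU and in neither with HU, was found at 2 lost sites. One lies between HSP33 and ERR1, an enolase-related gene, in the terminal region of chromosome XV (folds 2.29 and 2.22), and the other is the first 299 bp listed for chromosome II (1.90 and 1.98). Their midpoints lie 12193 and 149 bp from a chromosome end. Whether reads there can be placed on 1 copy was not checked. Of the 633 kept sites, 2 had the pattern of HU and 5 the reverse, against 5 and 2 of the 343 lost sites. These small counts were not tested, and the share over all Orc5 peaks is not given.

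Single-list peaks included sites between NOC3, a gene needed for ribosome assembly and replication initiation, and CMS1, in MPH1, which encodes a DNA helicase, and between NFG1 and TRX1, all in the first WT-FRB library with HU. Among the 33 lost sites between convergent genes, 0 had a break peak; the limit of 3 counts in 33 is 9.09%. Of the sites between convergent genes, 1 of 29 kept ones, 6 of 25 wide ones and 8 of 91 of all Orc5 peaks (8.79%) had one, so the lost sites cannot be told apart from all Orc5 peaks at this number.

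**Figure D3:**
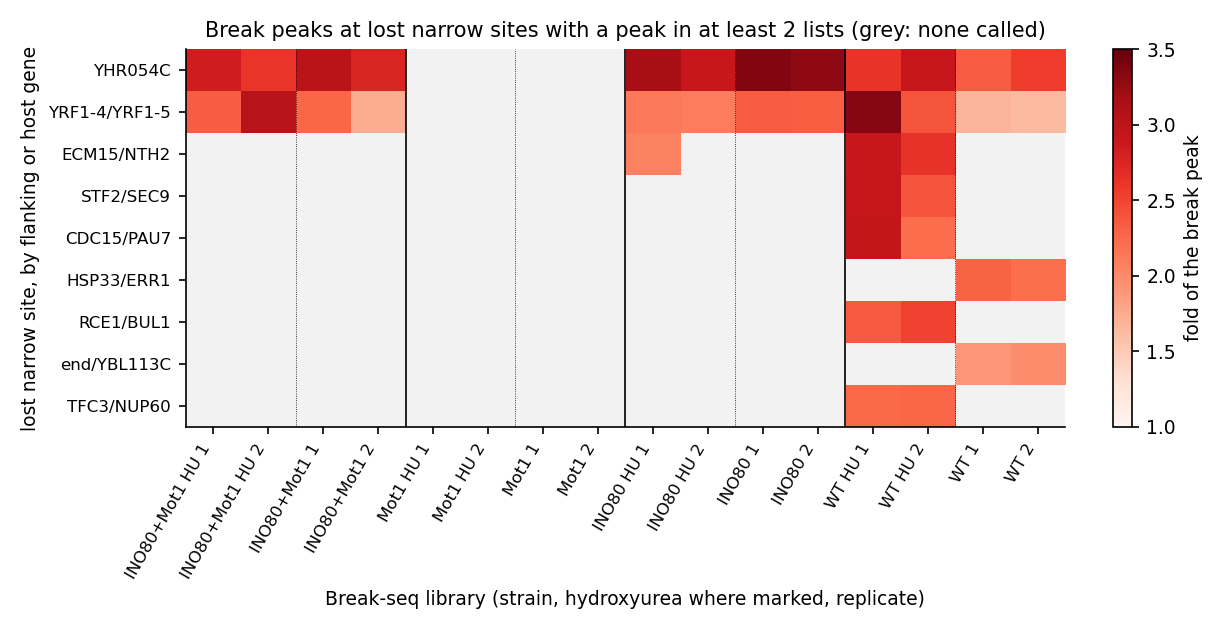
Fold of the break peak over its local background at the 9 lost sites with a break peak in at least 2 lists (rows), in the 16 Break-seq libraries (columns; strain, HU where marked, replicate); grey marks no peak called. YHR054C and YRF1-4/YRF1-5 are filled in all libraries but those of Mot1-FRB, and 5 sites are filled in both WT libraries with HU and neither without.

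Counted per library, 4 and 2 lost sites had a break peak in INO80-FRB with HU, against 11 and 7 in WT-FRB with HU. The background over all Orc5 peaks was 0.707% and 0.707% in INO80-FRB and 3.18% and 1.63% in WT-FRB. Without HU, 2 and 2 lost sites had one in INO80-FRB (background 0.565% and 0.424%), against 6 and 5 in WT-FRB (5.02% and 1.41%). Both INO80-FRB pairs lay below both WT-FRB pairs, with means of 0.875% ± 0.412 against 2.62% ± 0.825 with HU and 0.583% ± 0 against 1.60% ± 0.206 without (SD, n = 2 each).

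In the doubly tagged strain the counts were 2 and 2 with HU (background 0.495% and 0.353%) and 3 and 3 without (0.636% and 1.20%). Mot1-FRB had 0 in each of its 4 libraries, and a count of 0 allows a share of up to 0.875%, the limit of 3 counts in 343 (the exact binomial upper bound is 1.07%). Its lists are very short, at 24 and 5 peaks with HU and 40 and 14 without, where the other lists held 180 to 510. Background in Mot1-FRB was 0.565% and 0.0707% with HU and 0.848% and 0.353% without.

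Over all 4 strata the INO80 depletion effect came to -0.328 percentage points (two-sided exact permutation within strata, 1296 arrangements, p = 0.434, adjusted p = 0.434 over 3 effects). The average hides opposite signs: the effect was -1.38 points where Mot1 was untagged and 0.729 where it was tagged. The second value could not be negative, since its reference, Mot1-FRB, had no break peak at any lost site. Without the Mot1-FRB libraries, whose lists were short, the INO80 effect over the 8 WT-FRB and INO80-FRB libraries was -1.38 points, with an exact permutation p of 0.0556, the smallest that the 36 arrangements can give (adjusted p = 0.111 over 2 effects). It was lower in 4 of 4 INO80-FRB libraries than in the WT-FRB libraries of the same HU condition.

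The HU effect was 0.255 points (exact permutation p = 0.361, adjusted p = 0.434), positive in WT-FRB and INO80-FRB, 0 in Mot1-FRB and negative in the doubly tagged strain. The Mot1 effect was -1.06 points (exact permutation p = 0.0324, adjusted p = 0.0972), and against WT-FRB it rested on lists with few peaks. None of the 3 passed the threshold of 0.05 after adjustment. The lists held 311 and 319 nuclear peaks in INO80-FRB with HU, against 341 and 286 in WT-FRB with HU, and 310 and 276 in INO80-FRB without HU, against 446 and 346 in WT-FRB without HU. Lost sites with a break peak per 100 nuclear peaks numbered 1.29 and 0.627 in INO80-FRB with HU, against 3.23 and 2.45 in WT-FRB with HU. Without HU they numbered 0.645 and 0.725 in INO80-FRB, against 1.35 and 1.45 in WT-FRB.

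Setting the 2 repeat sites aside left 2 and 0 lost sites in INO80-FRB with HU, against 9 and 5 in WT-FRB with HU. Without HU there were 0 and 0 in INO80-FRB, against 4 and 3 in WT-FRB. The INO80 effect over all strata was then -0.623 points (exact permutation p = 0.0556, adjusted p = 0.0833), and that removal was chosen after seeing the data.

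Lost and kept sites could not be told apart by break peaks over the libraries as a whole. The difference, lost minus kept, was -0.0254 points (exact sign-flip permutation over 16 libraries, p = 0.962). It was higher at lost sites in 10 libraries, lower in 5 and equal in 1, with differences from -4.89 to 2.26. The lowest came from the first WT-FRB library without HU, in which 42 kept sites (6.64%) but 6 lost sites (1.75%) had a peak. Without that library the difference was 0.299 points in the other direction (exact permutation p = 0.115), and without the second doubly tagged library lacking HU it was 0.00940. The count of libraries with more breaks at lost sites leaned on the 2 repeat sites. Without them the INO80-FRB means were 0% at lost against 0.316% at kept sites without HU, and 0.293% against 0.474% with HU. In the doubly tagged strain with HU they were 0% against 0.316%. Only WT-FRB with HU stayed higher at lost sites, at 2.05% against 0.869%.

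**Figure D4:**
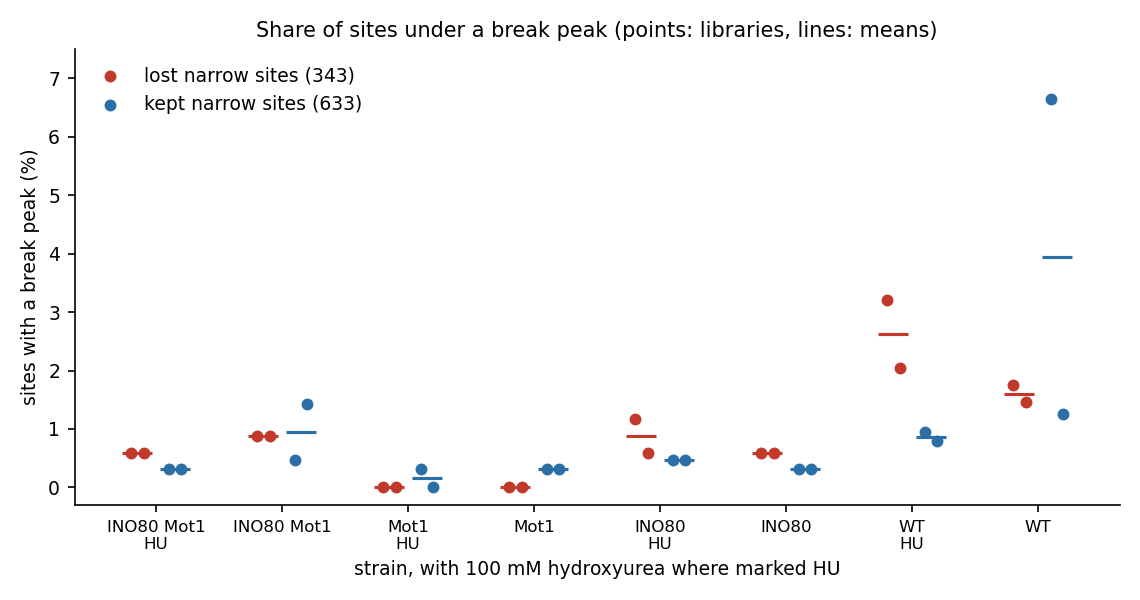
Percent of lost (red, 343) and kept (blue, 633) narrow sites with a break peak in each Break-seq library (points, 2 per group; lines, group means), by strain and HU. Lost sites stand above kept sites in both WT libraries with HU, and 1 WT library without HU has 6.64% of kept sites.

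Arp5 peaks covered much of the genome, and most lost sites on the chromosomes with Arp5 peaks met one. Of the wide Orc5 peaks there, 134 of 136 (98.5%) met an Arp5 peak in all 4 lists, against 121 of 209 lost sites (57.9%). These shares are not matched for width: the median was 1850 bp for wide and 177 bp for lost sites, and wider intervals meet more peaks. The Arp5 lists have no peak on chromosomes IV, IX and XII, and only the second rapamycin library has any on V and XVI. On the 11 chromosomes listed in all 4, which hold 209 lost sites, Arp5 peaks took 52.4% to 54.0% of the bases. An interval of the median width of a lost site, 177 bp, would touch a peak at 65.7% to 66.6% of all places on them. Chromosomes I, III and VI were 88.4% to 99.3% under Arp5 peaks, so overlap there was nearly fixed. They hold 12, 6 and 10 lost sites and 16, 52 and 24 kept sites. The overlap shares of lost and kept sites below, also by context, were not adjusted for this.

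With rapamycin, 68.9% and 87.6% of the 209 lost sites met an Arp5 peak, against 74.6% and 72.2% without. The background over all Orc5 peaks there was 80.3% and 85.9% with rapamycin and 79.1% and 74.6% without, above the lost sites in 3 of the 4 libraries. Over all chromosomes the shares were 42.0% and 66.5% with rapamycin, against 45.5% and 44.0% without, a difference of 9.48 points (exact permutation over 4 libraries, p = 1.00, where 0.333 is the smallest possible). On the shared chromosomes it was 4.78 points (p = 1.00, exact permutation). Without the second rapamycin library the difference was -2.77 points over all chromosomes and -4.55 on the shared ones. The first rapamycin library lay below both libraries without rapamycin and the second above them, and 4 libraries cannot reach the threshold.

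Lost sites against kept sites gave no stable difference in overlap. With rapamycin the kept sites had 79.6% and 82.2% on the shared chromosomes, and without it 70.4% and 66.2%. The mean difference, lost minus kept, was -4.10 points over all chromosomes (exact sign-flip permutation, p = 0.125, the smallest possible) and 1.25 on the shared chromosomes (p = 0.875, exact permutation). The chromosomes without Arp5 peaks hold relatively more lost sites, as 60.9% of lost and 67.3% of kept sites lie on shared ones. All 4 lists had a peak at 57.9% of lost sites, against 262 of 426 kept sites (61.5%) and 66.6% of all Orc5 peaks. Of these sites in all 4 lists, 20.7% of the lost and 32.8% of the kept ones lay under an Arp5 peak of over 10 kb. None had one at 18 lost sites (8.61%), against 53 kept sites (12.4%) and 8.39% of all Orc5 peaks.

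By context, an Arp5 peak in all 4 lists was most frequent at lost sites inside coding genes, at 49 of 65 (75.4%, 63.1 to 85.2), against 83.8% of kept sites and 85.9% of all Orc5 peaks there. Between divergent genes it was 27 of 44 lost sites (61.4%), against 72 of 148 kept sites (48.6%) and 59.9% of all Orc5 peaks. Between tandem genes it was 38 of 77 lost sites (49.4%), against 57.6% of kept sites and 62.0% of all Orc5 peaks. Between convergent genes it was 6 of 19 lost sites (31.6%, 12.6 to 56.6), against 19 of 22 kept sites (86.4%, 65.1 to 97.1) and 70.0% of all Orc5 peaks. Of the 4 contexts, the share of lost sites was lowest between convergent genes, on 19 sites. For kept sites it was nominally highest there, on 22 sites, with an interval that takes in the 83.8% inside coding genes.

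Where Arp5 was present, the rank of its enrichment at lost against kept sites turned with the scale and the chromosomes used. In the whole lists the lost sites ranked higher, with median percentiles of 37.5 and 37.0 with rapamycin, against 26.5 and 30.6 for kept sites, and of 32.9 and 39.3 without, against 25.4 and 24.2. The authors' enrichment, ChIP reads over control reads, depended strongly on the chromosome: in the first rapamycin list its median was 18.3 on X and 1.40 on XI. Of the 8 members with the highest rank in the whole lists, 7 lie on X, among them sites beside VTC4 (a polyphosphate synthase subunit gene) and beside DPB11 (a replication initiation gene, with SIP4 on the other side). Ranks were therefore also taken among the peaks of the same chromosome, on the 8 chromosomes with at least 100 peaks in every list, a step chosen after seeing these values.

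On that scale, the 98 lost sites with Arp5 in all 4 lists had a median rank percentile of 42.0, against 61.9 for 176 kept sites and 64.0 for 450 Orc5 peaks of all kinds. With rapamycin the medians were 41.6 and 49.9 for lost sites, against 69.4 and 61.1 for kept sites. Without rapamycin they were 39.4 and 47.7, against 65.1 and 64.4. On this scale lost sites ranked below kept sites in 4 of 4 lists, the reverse of the order in the whole lists. The gap was largest inside coding genes, where the medians were 31.9 for 41 lost sites and 60.3 for 40 kept sites, and was present at widths under 200 bp, at 39.8 and 63.3. Between convergent genes there was none, with 82.8 for 5 lost sites and 76.9 for 12 kept sites. No test is given, since the measure was chosen with these values in view.

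The lost sites that ranked highest within their chromosome were YHR054C, at rank percentile 95.3, and sites between VBA5 and GEX2 (94.9) and between SRL3 and SRP40 (93.5) on XI. GAP1, the general amino acid permease gene, had a 5 bp site at 91.8, and ZWF1, which encodes glucose-6-phosphate dehydrogenase, had one at 91.5. YHR054C thus stood out in both assays, with a break peak in 12 lists and Arp5 enrichments of 14.3 and 20.5 with rapamycin, against 17.8 and 19.5 without. The Arp5 peaks over it are 8066 to 9062 bp wide, far wider than the site.

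Arp5 peaks changed with rapamycin at few lost sites and at few kept sites. A peak in both rapamycin libraries and neither library without it was found at 7 of 209 lost sites (3.35%), against 35 of 426 kept sites (8.22%). The opposite was found at 2 lost sites (0.957%) and 1 kept site (0.235%). These counts were not tested, and the share over all Orc5 peaks is not given.

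**Figure D5:**
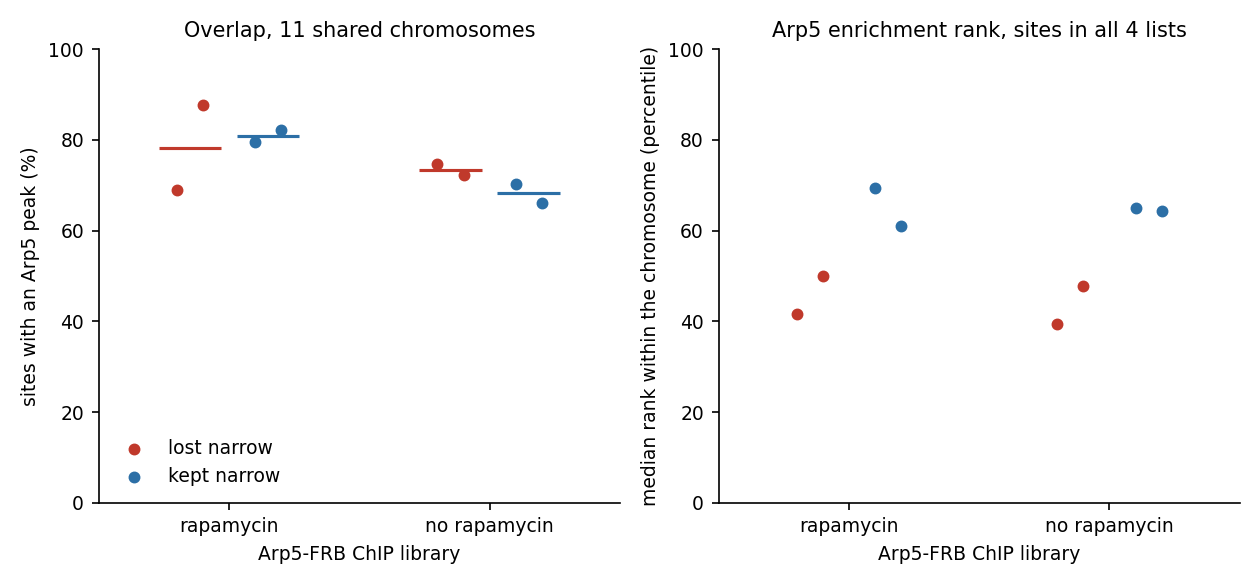
Left, percent of lost (red) and kept (blue) narrow sites on the 11 shared chromosomes with an Arp5 peak in each library (points; lines, means), with and without rapamycin. Right, median rank of Arp5 enrichment within its chromosome, on 8 chromosomes, for sites with Arp5 in all 4 lists (98 lost, 176 kept). Each lost median, 39.4 to 49.9, is below each kept median, 61.1 to 69.4, whereas ranks in the whole lists, on 11 chromosomes, run the other way.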

How the data were processed

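The inputs were 1 peak list per library, not pooled: 2 Orc5 and 4 Arp5 ChIP-seq lists (50 bp reads) and 16 Break-seq lists (75 bp reads). Per the submitters' processing notes, reads were aligned with Bowtie2 to sacCer3; the peak callers are not given in the sources read. The 8 NET-seq samples are not analysed here. The deposited Break-seq lists give each peak a score, a fold over local background (a ratio), and −log10 of a p-value and q-value, in narrowPeak columns. The deposited Arp5 lists hold, per the file headers, counts of ChIP and control reads, an enrichment ratio, a log p score and a q-value for every peak. The deposited Orc5 lists hold positions only. Folds and ranks were used only within a list. Library depth is unknown, so a missing peak can be a missed call, and intervals (exact binomial, 95%) cover counting error only.

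Overlap meant at least 1 shared bp, with a peak listed at 0 bp counted as 1 bp. Genes came from the R64 gene table (6477 genes, with the coordinates of sacCer3), strand from systematic names. It gives no origins. Shares per library were compared with exact permutation tests, with Benjamini-Hochberg adjustment over the 3 break effects (Python 3.11.15, NumPy 2.4.6). The code was tested on simulated data. Alternatives changed the overlap rule, list cutoff, member rule and libraries. The members and gene lists were chosen with earlier results of these data known. Named sites were those in most break lists, of highest Arp5 rank in all 4 lists, widest and narrowest, nearest each limit of the rule, and widest by context or gene list; others named were chosen after their values were seen, and some that qualified are not reported here. No label says replicates were separate cultures, so p-values measure a spread that may be technical.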

Additional observations from a re-analysis of the deposited data

Results flagged for a closer look

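The effect of INO80 depletion on the percent of lost narrow sites with a break peak differed between strains with untagged and with tagged Mot1. It was -1.38 points for INO80-FRB against WT-FRB and 0.729 points for INO80-FRB Mot1-FRB against Mot1-FRB, a difference of -2.11 points (exact permutation of the INO80 label within strata, p = 0.00154, the smallest of 1296 arrangements). Every library of the first comparison moved down and every library of the second moved up. Without the 2 sites with a break peak in 12 lists, both in repeated DNA, the difference was -1.54 points (p = 0.00926, exact permutation), with 0.147 points where Mot1 was tagged. Per 100 nuclear peaks of each list it was -2.34 sites (p = 0.00154, exact permutation). The Mot1-FRB lists hold 5 to 40 peaks and none at a lost site, so their values cannot go lower. The effect where Mot1 was tagged therefore could not be negative, and a count of 0 stays 0 per 100 peaks. These p-values cannot tell Mot1 status apart from the short lists. Over all Orc5 peaks INO80-FRB also lay below WT-FRB. Without HU the shares were 0.565% and 0.424% against 5.02% and 1.41%, and with HU 0.707% and 0.707% against 3.18% and 1.63%. The doubly tagged strain had 0.636% and 1.20% without HU, against 0.848% and 0.353% in Mot1-FRB. With HU it had 0.495% and 0.353%, against 0.565% and 0.0707%. The pattern is thus not shown to be particular to lost sites.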

How the results depend on the processing

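The number of lost sites was 286 to 405 over 6 changes of the rule. The INO80, HU and Mot1 effects kept their direction and stayed above the adjusted threshold in all 25, 25 and 24 alternatives. Leaving out 1 library at a time gave ranges of -0.474 to -0.182 points for INO80, 0.109 to 0.401 for HU and -1.20 to -0.911 for Mot1. Replicate numbers pair no samples by the labels, and only 7 of 28 pairs of Break-seq groups correlated above 0.1 in their deviations; for Arp5 the correlation was 0.0211. With the replicate number as a block the exact permutation p-values were 0.508 for INO80, 0.375 for HU, 0.0781 for Mot1 and 1.00 for Arp5, and the effects were as before (-0.328, 0.255, -1.06 and 9.48 points).

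The break difference between lost and kept sites turned to 0.178 points with midpoints, 0.0894 with the higher-scoring part of each list, 0.109 with only members that have no rapamycin peak within 500 bp and 0.0451 without Mot1-FRB, and ranged from -0.178 to 0.299 with 1 library left out. The Arp5 effect of rapamycin ranged from -2.77 to 21.7 points, or from -4.55 to 14.1 on shared chromosomes. The Arp5 difference between lost and kept sites ranged from -5.30 to -1.61, or on shared chromosomes from -0.353 to 5.22, and was 1.34 with the more enriched part of each list and 1.25 on shared chromosomes; without the first library lacking rapamycin it was 0.258 there. The cause was not tested. Where 2 sites in 343 make 0.583%, the number of sites limits every break comparison.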
